A study of Caenorhabditis elegans with 6 samples.

Results

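Ligand-gated ion channel subunits of Caenorhabditis elegans were followed on arrays that set a microRNA mutant against the wild type. The members were the genes of the acr, lgc, glr and nmr number series, to which unc-29, unc-38, unc-63, unc-49, eat-2, deg-3 and des-2 were added. The rule that picks them uses gene names and no measured value, although the set was proposed with earlier results of these data known. The reference annotation lists 96 such genes, and 85 of them had a probe among the 18124 gene names on the array. These 85 genes carried 88 probes. The other 11 (acr-25, glr-3, lgc-7, lgc-14, lgc-17, lgc-24, lgc-25, lgc-28, lgc-29, lgc-31 and lgc-36) had no probe that could be matched by name.

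The wild type was the strain N2. The mutant carried n4759, a deletion allele of mir-243, whose microRNA is bound by the Argonaute protein RDE-1. Whole worms of both genotypes were young adults grown at 20 °C, and no group received a treatment. Total RNA of 3 biological replicates was copied from random primers, and each replicate was hybridised on 2 arrays with the dyes exchanged. All signals therefore come from whole animals, in which fewer cells of a type and less RNA per cell cannot be told apart.

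Most of these genes code for subunits that assemble as a ring around a pore in the cell membrane, and the glr and nmr genes code for ionotropic glutamate receptor subunits. Binding of a transmitter opens the pore. A channel that passes cations excites the nerve or muscle cell, and a channel that passes chloride silences it. In C. elegans such channels receive the acetylcholine and GABA signals of motor neurons on the muscle, carry glutamate signals between neurons, and are the targets of anthelmintic drugs such as levamisole and ivermectin. Many lgc genes have no known ligand.

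The share of spots well above background was 74.8% to 80.2% for Cy3 and 76.3% to 83.0% for Cy5, and precision is limited by the 6 arrays. Of 20401 gene probes, 16272 were tested. No probe was matched to mir-243 itself, so its absence was not checked here. Y47H10A.5, the gene that miR-243 targets, had a log2 ratio of mutant over wild type of 1.07 ± 0.123 (SD, n = 3), and the single replicates gave 1.03, 0.98 and 1.21. The labelled stage was set against marker genes. Of 10 tested probes for larval epidermis and molt genes, 10 were called higher in the mutant, with a median log2 ratio of 3.81. Their mean log2 signal was 13.6 to 13.8 in the mutant replicates and 9.84 to 9.99 in the wild type, and all were above background in both genotypes. Of 11 tested probes for oocyte and germ line genes, 11 were lower and 8 were called, with a median of -1.81. Both genotypes are labelled young adult, and the part of these differences in the values of the channel genes was not tested.

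Of the 88 member probes, 78 probes of 75 genes were bright enough to be tested, and 67 of these were above background in both genotypes on all 6 arrays. The 10 that were not tested belonged to acr-21, glr-10, lgc-6, lgc-18, lgc-19, lgc-41, lgc-48, lgc-51, lgc-52 and lgc-58. For 7 of them no array measured a signal well above background, whichever the genotype. The exceptions were lgc-18, measured above background on 3 of 6 mutant channels, and acr-21 and lgc-58, measured on 1 each. All 3 were measured on 0 wild-type channels. Of the tested members, acr-3, acr-6, lgc-11, lgc-23 and lgc-47 were well above background on 4 to 6 mutant channels but on 2 or fewer wild-type channels. No member probe was saturated. The members were dim as a group: the median log2 signal over both genotypes was 7.80 for the tested members and 8.89 for all tested probes.

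A probe was called when its limma adjusted p was under 0.05 and its fold was at least 2. Of the 78 tested member probes, 5 were called higher in the mutant (6.41%), beside 9.18% of all 16272 tested probes. None was called lower (0 of 78, with 7 lower at an unadjusted limma p under 0.05), beside 7.09% of all tested probes. The share of large increases was thus near that of the array as a whole. The 5 called probes belonged to 4 genes, lgc-27, lgc-21, lgc-22 and lgc-43, and all 4 are lgc genes for which no role is given here.

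The strongest of these was lgc-27, which had 2 probes. The probe named for the transcript Y74E4A.1b gave log2 signals of 12.57, 12.74 and 12.53 in the mutant replicates and 9.39, 9.49 and 9.61 in the wild type. The genotypes were far apart, and no mutant value came near a wild-type value. The log2 ratio was 3.12 ± 0.172 (SD, n = 3; adjusted p = 2.64e-14), a fold of 8.67. The probe named for Y74E4A.1a gave 12.358, 12.648 and 12.371 in the mutant and 9.778, 9.898 and 10.001 in the wild type, with a log2 ratio of 2.57 ± 0.190 (adjusted p = 2.46e-13). The ratio of the first probe exceeded that of the second in each replicate, by 0.60, 0.50 and 0.55.

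The gene lgc-21 had log2 signals of 12.68, 13.12 and 13.06 in the mutant and 10.03, 10.36 and 10.26 in the wild type. Its ratio of 2.73 ± 0.0750 (adjusted p = 1.11e-14) was a fold of 6.65 and had the smallest spread between replicates of the 5 called probes. For lgc-22 the signals were 13.84, 14.01 and 13.83 in the mutant and 11.87, 12.04 and 12.03 in the wild type, which gave a ratio of 1.92 ± 0.0952 (adjusted p = 3.67e-13). The smallest of the called increases was that of lgc-43, with signals of 11.82, 12.06 and 11.80 in the mutant against 10.31, 10.42 and 10.37, a ratio of 1.53 ± 0.107 (adjusted p = 4.63e-12). In these genes, too, the mutant and wild-type signals did not overlap. All 5 probes were higher on 6 of 6 arrays, reached a 2-fold difference in each replicate, and were called under each of the 14 alternative ways of processing the arrays.

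**Figure D1:**
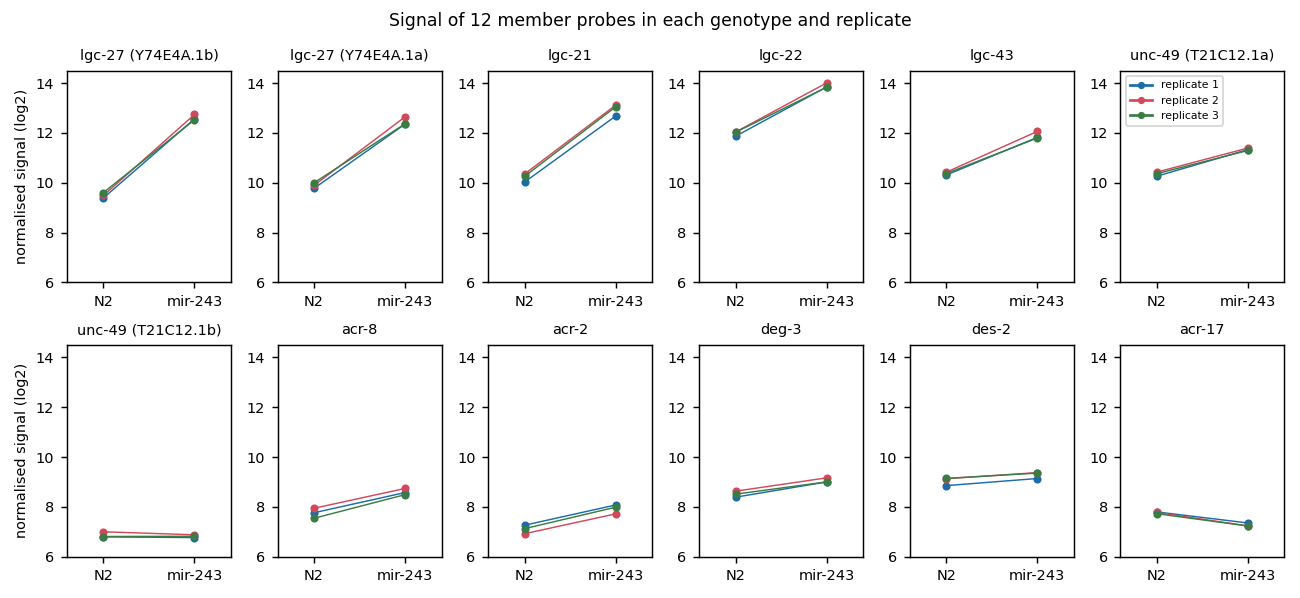
Log2 signal (loess and between-array quantile normalisation) of 12 member probes in N2 and mir-243 mutant worms, with 1 line for each of the 3 replicates. The lines of lgc-27, lgc-21, lgc-22 and lgc-43 rise steeply in every replicate, the pair of unc-49 probes differ, and acr-17 declines. Signals of different probes cannot be compared with each other.

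Below the 2-fold line, small differences were common. With an adjusted p under 0.05 and no limit on the fold, 51 of the 78 member probes were higher (65.4%) and 7 were lower (8.97%), beside 42.3% higher and 41.3% lower among all tested probes. The 51 include the 5 members that passed the filter on dim signals through the mutant channels, in which they were higher. Without them, 46 of 73 were higher (63%) and 7 lower (9.59%), beside 41.6% and 42.7% of the 15251 tested probes measured in both genotypes on at least 4 arrays. The median log2 ratio of the members was 0.21, 0.20 and 0.21 in the 3 replicates, and the median over probe means was 0.20, beside -0.01 for all tested probes. Without the 5 called probes it was 0.17. With a fold of at least 1.5, 12 members (15.4%) were higher and 0 lower, beside 18.9% higher and 17.9% lower among all tested probes. The median SD between replicates was 0.0615 for members and 0.0683 for all tested probes, so that ratios well under 2-fold exceeded the replicate spread. Of the 78 member probes, 45 were higher on all 6 arrays and 7 were lower on all 6. Among all 16272 tested probes, 6268 were higher and 6017 lower on all 6.

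The shift was larger among the brighter members. The 39 dimmer members had a median log2 ratio of 0.14 and the 39 brighter ones 0.37, and 11 of the 12 members with a fold of 1.5 lay in the brighter set. Among all tested probes, the median was -0.02 for the 5260 probes dimmer than the median member and 0.01 for the others. Except where other processing is named, ratios are on the scale of signal plus 50 intensity units, which draws the ratios of dim probes towards 0, so the size of a difference is understated for dim members.

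**Figure D2:**
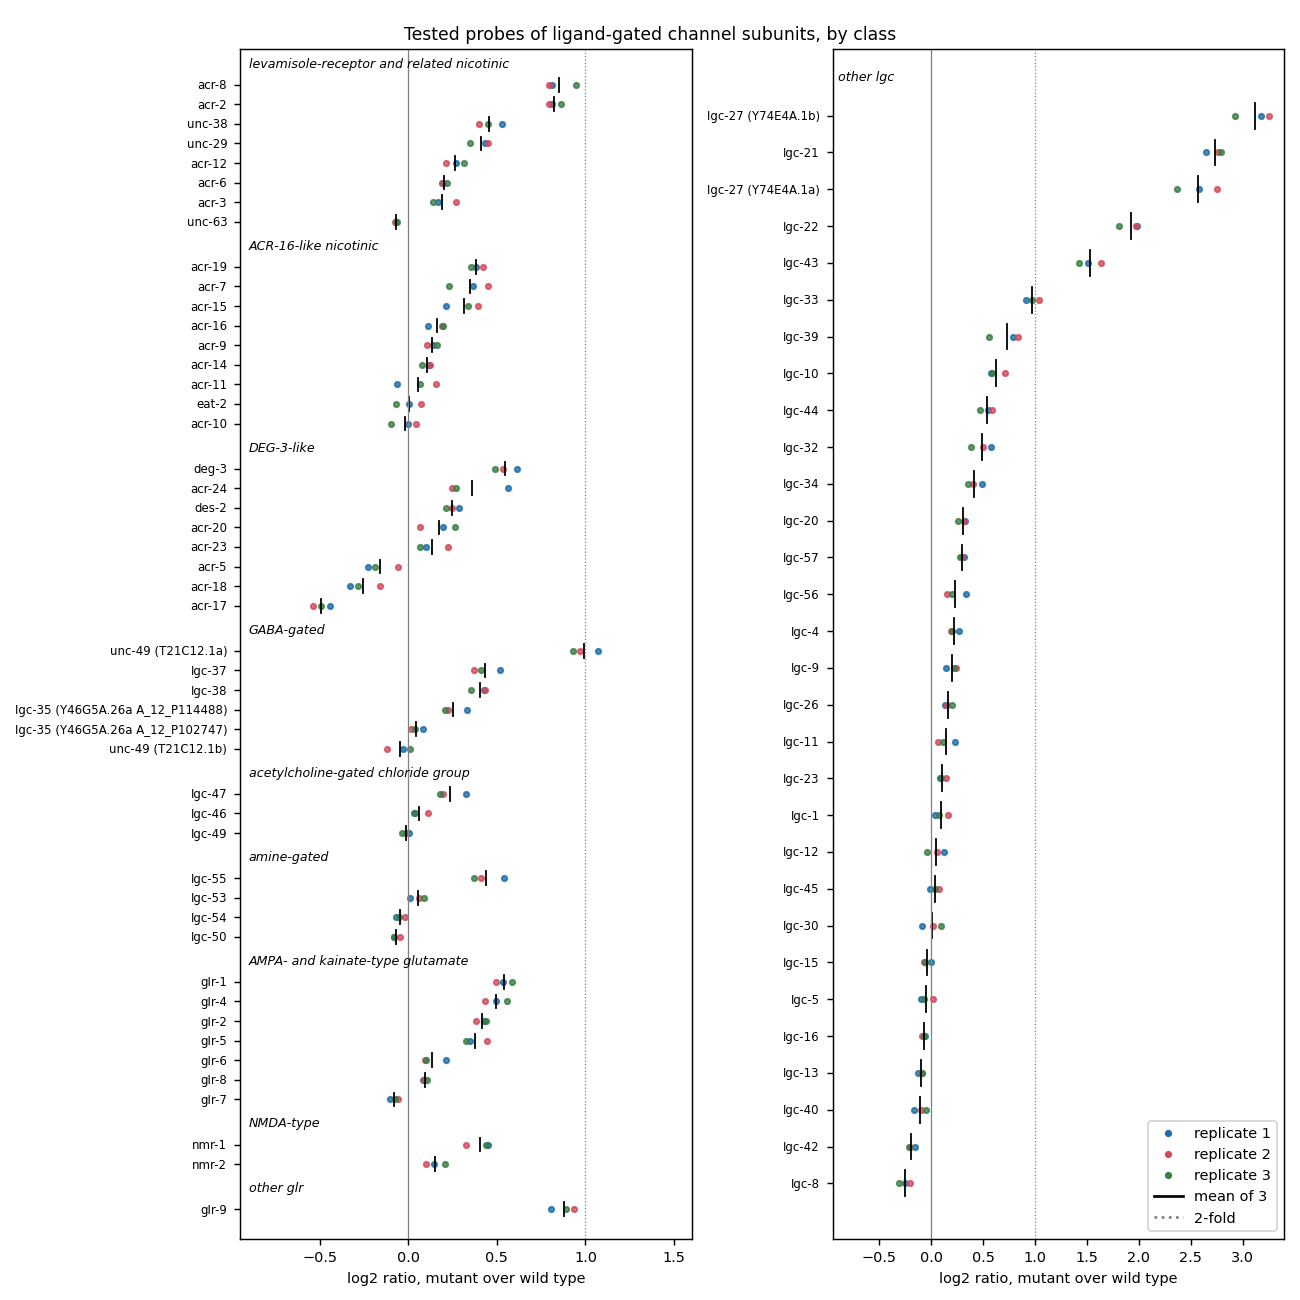
Log2 ratio of mutant over wild type for the 78 tested member probes, sorted by receptor class and ratio. Points are the 3 replicates, each the mean of 2 arrays with exchanged dyes, black bars are their means, and the dotted line marks 2-fold; the 2 panels have different scales. Most points lie to the right of 0, and the 5 probes beyond the dotted line are all in the panel of other lgc genes.

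The nicotinic acetylcholine receptor subunits fall into 3 classes with 25 tested probes. Of these, 18 were higher (72%), 3 were lower (12%) and 4 did not pass the adjusted p. Among all tested probes, 42.3% were higher and 41.3% lower. The 18 include acr-3 and acr-6, which passed the filter through the mutant channels alone. In the levamisole-receptor and related class, 7 of 8 were higher and 0 lower, with a median of 0.34. Without acr-3 and acr-6, 5 of 6 were higher, with a median of 0.43. The levamisole receptor of body wall muscle contains UNC-29, UNC-38 and UNC-63. The log2 signals of unc-38 were 10.04, 9.94 and 9.90 in the mutant and 9.51, 9.55 and 9.45 in the wild type, and those of unc-29 were 8.42, 8.56 and 8.40 against 7.99, 8.11 and 8.06. Both genes were higher without overlap, by 0.46 ± 0.0675 (adjusted p = 4.34e-07) and 0.41 ± 0.0544 (adjusted p = 1.11e-06). The signals of unc-63 were 7.10, 7.29 and 7.14 in the mutant and 7.17, 7.37 and 7.20 in the wild type. These overlapped, and the ratio of -0.07 ± 0.00753 did not pass (adjusted p = 0.140), with a 95% interval from -0.16 to 0.02, and its sign turned with median centring of the arrays (0.024). The intervals of unc-38 (0.36 to 0.56) and unc-29 (0.31 to 0.50) lay above that of unc-63.

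The largest ratios of the class belonged to acr-8, a subunit related to those of the levamisole receptor, and to acr-2. Signals of acr-8 were 8.58, 8.74 and 8.49 in the mutant and 7.77, 7.95 and 7.55 in the wild type, with a ratio of 0.85 ± 0.0835 (adjusted p = 8.88e-10). The ACR-2 receptor acts in the cholinergic motor neurons themselves and contains ACR-2, ACR-3, ACR-12, UNC-38 and UNC-63. For acr-2 the signals were 8.08, 7.72 and 7.99 against 7.27, 6.93 and 7.13, a ratio of 0.82 ± 0.0332 (adjusted p = 5.55e-10). Its partner acr-12 had a ratio of 0.27 ± 0.0498, and acr-3 had 0.19 ± 0.0677. The probe of acr-3 was well above background on 4 mutant and 0 wild-type channels. Its ratio thus rests on a wild-type signal not well above background, and the size of the difference is uncertain. The same was nearly so for acr-6, measured on 5 mutant and 1 wild-type channels, with a ratio of 0.20 ± 0.0152.

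Several of these ratios were larger with other processing. With the scanner's own processed signals, which have no offset, acr-2 had a log2 ratio of 1.53, acr-3 of 1.16, acr-8 of 1.14 and the glutamate receptor gene glr-1 of 1.02, and all 4 were then called, although acr-3 was not well above background in the wild type. The ratio of acr-8 also passed 2-fold with median centring of the arrays and with the mutant in Cy5 only. Large shifts were seen in other members too, to 0.99 for acr-6, 0.96 for nmr-1 and 0.89 for lgc-47, which remained below 2-fold. Of the 58 members with a ratio of at least 0.1 in size, 24 were over 1.5 times larger with those signals and 3 were smaller by as much. The ratios of lgc-27, lgc-21, lgc-22 and lgc-43 were nearly the same on both scales.

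**Figure D3:**
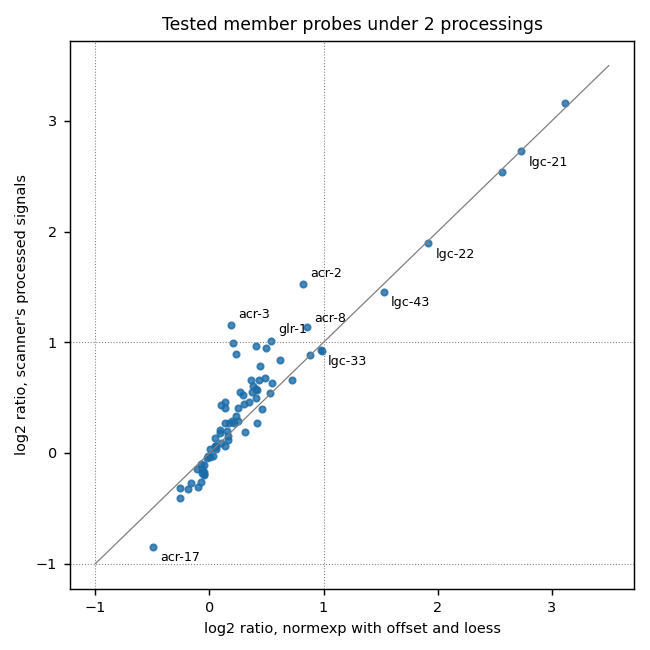
Log2 ratio of mutant over wild type for the 78 tested member probes with background correction, offset and loess (horizontal axis) and with the scanner's processed signals (vertical axis). The diagonal is equality and dotted lines mark 2-fold; acr-2, acr-3, acr-8 and glr-1 lie above the upper 2-fold line on the vertical axis only, and the 5 called probes lie near the diagonal.

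The ACR-16-like class, named for the nicotine-sensitive receptor of body wall muscle, had small ratios. Of 9 tested members, 6 were higher and 0 lower, and the median was 0.13. The ratio of acr-16 itself was 0.16 ± 0.0481 (adjusted p = 0.00322), and the largest ratios were 0.38 ± 0.0342 for acr-19, 0.35 ± 0.110 for acr-7 and 0.31 ± 0.0931 for acr-15. For acr-9 and acr-14 the ratios were 0.13 and 0.10. That of acr-14 was positive on 3 of 6 arrays only, those with the mutant in Cy5, although its mean passed (adjusted p = 0.0350). EAT-2 drives the fast pumping of the pharynx, and the replicate ratios of eat-2 lay on both sides of 0, with a mean of 0.00 ± 0.0706 and a 95% interval from -0.09 to 0.10. Neither acr-10 (-0.02) nor acr-11 (0.05) passed.

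In the DEG-3-like class, 5 of 8 tested members were higher and 3 were lower. DEG-3 and DES-2 form a choline-sensitive receptor, and both genes were higher. Signals of deg-3 were 9.003, 9.166 and 9.003 in the mutant and 8.391, 8.631 and 8.511 in the wild type, a ratio of 0.55 ± 0.0612 (adjusted p = 6.06e-08). The signals of des-2 were 9.14, 9.38 and 9.36 against 8.85, 9.13 and 9.14, which overlap between the genotypes. Its ratio within replicates was 0.25 ± 0.0360 (adjusted p = 1.16e-04) and was positive on 5 of 6 arrays. Further increases were those of acr-24 (0.36 ± 0.178), which had the widest spread of the class and a replicate 1 value of 0.56 above the 0.24 and 0.27 of the others, and of acr-20 (0.17 ± 0.102). The betaine receptor gene acr-23, whose product is a target of the drug monepantel, had a ratio of 0.13 ± 0.0837 and was positive on 3 of 6 arrays, those with the mutant in Cy5.

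The lowest ratio of all members belonged to acr-17, also of the DEG-3-like class. Its signals were 7.36, 7.24 and 7.23 in the mutant and 7.80, 7.78 and 7.73 in the wild type, without overlap, and its ratio was -0.49 ± 0.0477 (adjusted p = 1.49e-07), a fold of 1.41 downwards. The genes acr-18, with -0.26 ± 0.0887 (adjusted p = 1.81e-04), and acr-5, which is expressed in B-type motor neurons, with -0.16 ± 0.0880 (adjusted p = 0.00642), were also lower on 6 of 6 arrays. With median centring in place of loess they had -0.13 (adjusted p = 0.0597) and -0.055 (adjusted p = 0.432) and no longer passed. The signals of acr-18 were 8.80, 9.04 and 8.79 in the mutant against 9.13, 9.20 and 9.07, which came close in replicate 2 but did not overlap.

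Among GABA-gated subunits, 4 of 6 tested probes were higher and 0 lower, with a median of 0.33. The locus unc-49 makes alternative subunits of the muscle receptor that relaxes the body wall, and its 2 probes gave different results. The probe named for T21C12.1a had signals of 11.33, 11.40 and 11.30 in the mutant and 10.26, 10.43 and 10.37 in the wild type. With a ratio of 0.99 ± 0.0723 (adjusted p = 1.54e-10) it lay just under the 2-fold line. The probe named for T21C12.1b had 6.770, 6.882 and 6.823 against 6.798, 7.002 and 6.813, which overlap, and its ratio was -0.05 ± 0.0670 (adjusted p = 0.345). The difference between the 2 probes was 1.098, 1.088 and 0.920 in the 3 replicates. The T21C12.1b probe was dim, so the offset draws its ratio towards 0. With the scanner's processed signals, which have no offset, the ratios of the T21C12.1a and T21C12.1b probes were 0.92 and -0.20. Where on the transcripts the probes lie was not determined here.

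The other GABA-gated subunits were lgc-37 and lgc-38, with ratios of 0.43 ± 0.0762 and 0.40 ± 0.0447, and lgc-35, whose product is a cation channel opened by GABA. The 2 probes of lgc-35 gave 0.25 ± 0.0662 (adjusted p = 1.36e-04) and 0.05 ± 0.0345 (adjusted p = 0.331), and the first exceeded the second by 0.25, 0.21 and 0.17 in the replicates. The second was dim, with mean log2 signals of 6.87 in the mutant and 6.82 in the wild type. With the scanner's processed signals the 2 probes gave 0.41 and 0.14.

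Ratios near 0 prevailed in a pair of classes. In the group of lgc-46 to lgc-49, which are related to acetylcholine-gated chloride channels, 1 of 3 tested members passed, lgc-47 with 0.23 ± 0.0794, measured above background on 6 mutant and 1 wild-type channels. The ratios of lgc-46 and lgc-49 were 0.06 and -0.01. Among the amine-gated subunits, 1 of 4 passed. That was lgc-55, the tyramine-gated chloride channel, whose replicate ratios were 0.54, 0.41 and 0.37 (adjusted p = 1.01e-06). The ratios of lgc-50, a serotonin-gated cation channel, lgc-53, a dopamine-gated channel, and lgc-54 were -0.07, 0.05 and -0.05, all with adjusted p over 0.05. The 95% intervals of all 20 members that did not pass lay between -0.17 and 0.19, so that differences beyond that range were not found for them on this scale.

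Glutamate receptor subunits of the AMPA and kainate types had a median ratio of 0.37, with 5 of 7 tested members higher and 0 lower. GLR-1 and GLR-2 act in the command interneurons that set forward and backward movement. For glr-1 the signals were 7.60, 7.58 and 7.58 in the mutant and 7.07, 7.09 and 6.99 in the wild type, without overlap, and the ratio was 0.54 ± 0.0462 (adjusted p = 5.60e-08). It was followed by glr-4 (0.49 ± 0.0617), glr-2 (0.42 ± 0.0296) and glr-5 (0.37 ± 0.0624), and the 95% intervals of these 3 genes overlapped one another. The gene glr-6 was higher by 0.14 ± 0.0670, and glr-8 (0.09) and glr-7 (-0.08), the 2 remaining members, did not pass. Both NMDA-type subunits were higher, nmr-1 by 0.40 ± 0.0680 and nmr-2 by 0.15 ± 0.0549, the latter on 5 of 6 arrays.

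The gene glr-9, which belongs to none of these types here, had a ratio of 0.88 ± 0.0656 (adjusted p = 4.56e-10). Its signals were 13.90, 14.02 and 13.90 in the mutant and 13.09, 13.09 and 13.01 in the wild type.

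The remaining 30 tested probes belong to lgc genes with other numbers, and they hold all 5 calls. Of the 30, 19 were higher and 4 lower, with a median of 0.21. Without lgc-11 and lgc-23, which passed the filter through the mutant channels alone, 17 of 28 were higher and 4 lower, with a median of 0.22. Below the called genes came lgc-33, with signals of 10.39, 10.76 and 10.53 in the mutant and 9.48, 9.72 and 9.56 in the wild type and a ratio of 0.97 ± 0.0640 (adjusted p = 1.54e-10). It was followed by lgc-39 (0.73 ± 0.15), lgc-10 (0.62 ± 0.0734), lgc-44 (0.53 ± 0.0605), lgc-32 (0.49 ± 0.0974) and lgc-34 (0.41 ± 0.0685). In lgc-39 the replicate 3 value of 0.56 lay below the 0.79 and 0.84 of the others. Smaller increases that passed were those of lgc-20 (0.30), lgc-57 (0.29), lgc-56 (0.23), lgc-4 (0.22), lgc-9 (0.20), lgc-11 (0.14) and lgc-23 (0.10). The 7 that did not pass (lgc-1, lgc-5, lgc-12, lgc-15, lgc-16, lgc-30 and lgc-45) had ratios from -0.07 to 0.09.

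The lower members of this set were lgc-8 (-0.26 ± 0.0559), lgc-42 (-0.19 ± 0.0279), lgc-40 (-0.11 ± 0.0587) and lgc-13 (-0.10 ± 0.0243). LGC-40 is a channel opened by serotonin, choline and acetylcholine. None of the 4 reached a fold of 1.5. With median centring of the arrays in place of loess, lgc-8 had -0.10 (adjusted p = 0.126), lgc-42 had -0.044 (adjusted p = 0.507) and lgc-40 had -0.013 (adjusted p = 0.858), so these 3 no longer passed. For lgc-13, lower on 5 of 6 arrays, median centring gave -0.093, and whether that passed is not given here. The gene lgc-26 passed with a mean of 0.16 ± 0.0316 (adjusted p = 0.00318), yet the arrays with the mutant in Cy5 gave -0.10, -0.05 and -0.07 and those with the mutant in Cy3 gave 0.37, 0.35 and 0.46. Its sign followed the dye. In all, 8 of 78 member probes passed the adjusted p without the same sign on all 6 arrays, beside 1439 of all 16272 tested probes.

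Some members are neighbours on the chromosome. Of 12 neighbouring pairs in the reference annotation, 4 had both genes tested. The ratios were 0.82 and 0.19 for acr-2 and acr-3, which are made from 1 operon, 0.55 and 0.25 for deg-3 and des-2, also from 1 operon, 0.31 and 0.16 for acr-15 and acr-16, and -0.04 and -0.07 for lgc-15 and lgc-16, which did not pass. Both genes of a pair had the same sign in all 4 pairs. Of all 78 tested member probes, 61 had a positive ratio, so a shared sign is common among members at large. The acr-3 probe was not well above background in the wild type, as given above, so that its ratio cannot be set against that of acr-2.

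Subunits of ligand-gated channels outside the number series were measured beside the members. Of 17 tested probes, 15 were higher, 0 lower and 0 called, with a median of 0.31. The 15 include acc-2 (0.18), well above background on 4 mutant and 0 wild-type channels, which passed the filter through the mutant channels alone. The ratios were 0.31 for lev-1 and 0.40 for lev-8, both subunits of the levamisole receptor. The glutamate-gated chloride channel genes, the family that ivermectin acts on, were spread over the list. The genes avr-15 (0.58), glc-3 (0.50) and glc-4 (0.49) lay at the upper end together with pbo-5 (0.51), a proton-gated channel subunit. Of the same family, glc-1 (0.24), glc-2 (0.19) and avr-14 (0.10) lay below the median of the list. The serotonin-gated chloride channel mod-1 had 0.27, and the excitatory GABA receptor exp-1 had 0.33. The probes of acc-3 (-0.01) and pbo-6 (0.03) did not pass. None of the 17 reached the 1.53 of lgc-43.

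Proteins that assemble, cluster or regulate these receptors moved both ways. Of 19 probes of 16 such genes, 10 were higher and 5 lower, with a median of 0.13. The 10 include stg-1, whose ratio of 0.13 is that median. It was well above background on 6 mutant and 3 wild-type channels and passed the filter through the mutant channels alone. The chaperone gene ric-3, needed for acetylcholine receptors to mature, was called higher at 1.14 ± 0.0726 (adjusted p = 3.87e-11), and madd-4, whose product places receptors at the synapse, at 1.03 ± 0.158. The gene sol-1, for an auxiliary subunit of GLR-1 channels, had 0.88, and the 2 probes of nra-4, which with nra-2 sets the subunit composition of acetylcholine receptors, had 0.73 and 0.72. In the other direction, grld-1, which promotes translation of glr-1, was called lower by 1 probe (-1.01) and had -0.34 in the other. The genes cam-1 (-0.62), whose product moves ACR-16 to the synapse, nra-2 (-0.49) and unc-50 (-0.20), needed to bring acetylcholine receptors to the surface, were lower as well.

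Markers of the tissues that use these channels were measured beside them. Of 21 tested pan-neuronal probes, 16 were higher and 3 lower, 5 were called higher, and the median was 0.59. Their mean log2 signal was 10.20 to 10.24 in the mutant replicates and 9.63 to 9.70 in the wild type. The body wall muscle markers had a median of 0.18, with 9 of 12 higher and 1 lower, and mean signals of 12.20 to 12.31 against 11.96 to 12.06. For pharyngeal muscle the median was 0.45, with 4 of 5 higher, and mean signals of 11.2 to 11.3 against 10.8 to 10.9. In each of these 3 lists, 1 probe was not well above background in either genotype, those of mlc-3 (1 of 2 probes), unc-18 (1 of 2 probes) and the pharyngeal myosin gene myo-2. For the members, the same mean was 8.42 to 8.48 in the mutant and 8.05 to 8.11 in the wild type. Neuronal and muscle markers and the channel subunits were thus higher together in the median, and the part of the one in the other was not tested. Intestinal markers had a median of -1.01 with 4 higher and 5 lower of 9, so they did not move together. Lower were vit-1 (-4.15), vit-2 (-2.23), vit-5 (-3.44), vit-6 (-1.71) and ges-1 (-1.01). Higher were elt-2 (0.12), act-5 (0.41) and ifb-2 (0.52 and 0.65). Sperm markers had a median of 0.02, with 1 higher and 1 lower of 4.

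**Figure D4:**
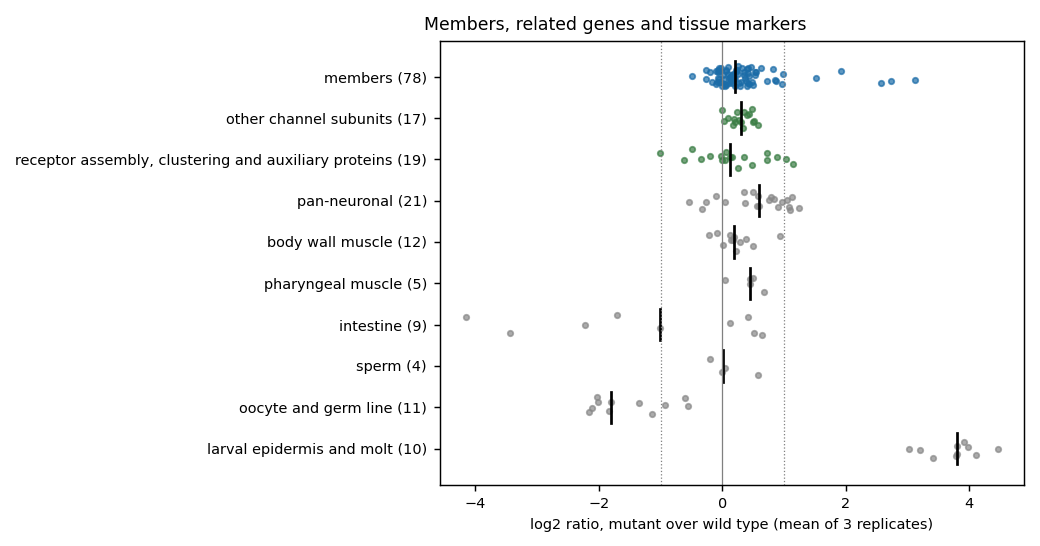
Log2 ratio of mutant over wild type (mean of 3 replicates) of each tested probe for the channel subunits (78), for related channel subunits and receptor-associated proteins, and for tissue marker lists; the number of probes is in parentheses, black bars are medians and dotted lines mark 2-fold. The member median of 0.20 lies between those of body wall muscle (0.18) and of the other channel subunits (0.31), below the pan-neuronal 0.59, and the epidermis and molt list stands apart at 3.81.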

How the data were processed

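RNA of mir-243 mutant and N2 worms was co-hybridised to Agilent arrays, 6 in all. The deposited spot intensities and local backgrounds (medians over pixels, not normalised), the processed intensities and the log10 ratio were made by the authors with Agilent Feature Extraction, version 10.5.1.1 per the file headers and 8.5.1.1 per the submitters' processing notes. The deposited log2 ratios of Cy5 over Cy3 lay within 0.001 of the scanner's log ratio for 88.0% to 90.8% of probes. Their array medians were -0.11, 0.02, -0.08, 0.05, -0.10 and 0.07, so arrays were not centred at 0, and swapped dyes were not turned. Quality marks deposited with each spot were used as well.

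Control spots were left out after background correction with normexp (offset 50), which was fitted on spots without outlier marks. Ratios were normalised by loess, outlier spots were set to missing, and spots, then dye orientations, were averaged per replicate. Signals per genotype were normalised with loess and Aquantile. A probe entered the test if at least 50% of its spots stood well above background on 4 of the 6 arrays for 1 genotype, with a value in every replicate. Of 20401 gene probes, 16812 met the first condition, and 540 lacked a value. Ratios were tested against 0 with limma 3.58.1 under R 4.3.3, two-sided, with Benjamini-Hochberg adjustment over all 16272 probes. The labels call the replicates biological but do not say what was separate, so p-values cover the spread between these 3 samples. An exact sign-flip test of 3 values cannot go below p = 0.25 and was not used.

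Names were matched to RefSeq genes (WBcel235), 19057 probes in all, and 1344 kept the file's name. The build of the probes is not given in the sources used here, so no positions are given. Where a gene had several probes, each was tested alone. The members, classes and lists were chosen with earlier results of these data known. Named were called members, the 8 highest and 8 lowest, and the members of each receptor class. Tests on simulated data recovered the changed probes, all of them bright and changed by a log2 ratio of 1.5 or 3 up or down. Recovery of dim probes and of smaller ratios, such as most members had, was not examined. Alternatives covered background, normalisation, intensity columns, filters, dyes, slide, replicates and thresholds.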

Additional observations from a re-analysis of the deposited data

Results flagged for a closer look

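In acr-18, 1 array stood apart, that of replicate 2 on which the mutant carried Cy5. It gave a log2 ratio of -0.0506, while the other 5 arrays lay between -0.342 and -0.266. The gap to the nearest array was 0.740 of the whole range, over Dixon's critical value for 6 arrays. Of 58 items examined in this way, this was the 1 that was flagged, and chance alone flags about 5% of them.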

How the results depend on the processing

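The 5 called probes stayed called under every alternative. Members called higher numbered 9 when the scanner's processed signals were used and 8 when the deposited ratios were (13.1% of all probes in each). They numbered 51 with the adjusted p alone (42.3% of all probes) and 12 with a fold of at least 1.5 (18.9%). When any 1 replicate was left out they numbered 6. Over all probes, calls in either direction were then 2678 of 16444, 2778 of 16488 and 2632 of 16308 without replicates 1, 2 and 3. The added gene was lgc-33 without replicate 1 (1.00) and unc-49 without replicate 2 (1.00) or 3 (1.02). With median centring there were 6, with acr-8 (1.02) added, beside 8.49% of all tested probes. With the mutant in Cy5 only there were 7, with acr-8 (1.03) and unc-49 (1.02), where calls in either direction over all probes were 2886 of 16478. Members called lower numbered 7 with the adjusted p alone (41.3% of all tested probes) and 0 otherwise. The share of all tested probes called lower was 7.09% in the main test, 9.21% with median centring and 17.9% with a fold of at least 1.5. The members' median was 0.30 with median centring, 0.32 with processed signals and with deposited ratios, 0.15 without background correction, 0.18 with normexp on all spots, 0.17 without the filter, 0.25 with the strict filter, 0.26 with the mutant in Cy5 only and 0.17 in Cy3 only. Calls that were higher made up 56.4% of all calls, 48% with median centring, 49% with processed signals and 48.6% with deposited ratios.

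A ratio near 0 changed sign in some cases. With median centring, lgc-49 had 0.15, acr-10 0.057, unc-63 0.024, lgc-50 0.036 and lgc-54 0.066. For eat-2 the ratio was -0.037 with processed signals and deposited ratios, -0.0062 without background correction, -0.0017 with normexp on all spots, -0.029 with the mutant in Cy5 only, -0.014 with slide as a block, and -0.031 to 0.040 when 1 replicate was left out. With the mutant in Cy5 only, acr-10 had 0.11 and lgc-50 0.025. With the mutant in Cy3 only, lgc-49 had 0.0053, lgc-35 (1 of 2 probes) -0.045, lgc-53 -0.0036, acr-11 -0.10, acr-14 -0.044, lgc-46 -0.019 and acr-23 -0.13. With 1 replicate left out, acr-10 had -0.048 to 0.020. The adjusted p was followed over the alternatives for 57 named member probes only. Other members that passed, such as lgc-9, lgc-13, lgc-23 and lgc-26, were not followed. Their lowest ratios included 0.068 for lgc-9, 0.025 for lgc-23 and -0.072 for lgc-26. Of the named members, 14 no longer passed under at least 1 alternative. Lower among them were 5 (acr-5, acr-18, lgc-8, lgc-40 and lgc-42), and the others were acr-6, acr-9, acr-14, acr-16, acr-20, acr-23, des-2, glr-6 and nmr-2. The cause was not tested. Each ratio already pairs both genotypes within an array, so no replicate block was added. Dim signal over background limits the smaller ratios.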
